A study of Mus musculus with 24 samples.

Results

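Vomeronasal receptor genes were followed in chromatin of irradiated mouse embryonic fibroblasts (MEFs). The receptor bins were the autosomal 100 kb bins of the deposited read count table that overlap a protein-coding gene whose symbol begins with Vmn1r (type 1) or Vmn2r (type 2) in the RefSeq annotation of mm10. There were 220 such bins among the 27268 bins of the table, 24639 of them autosomal. Of these, 106 bins held type 1 genes alone, 111 held type 2 genes alone and 3 held genes of both types. They carried 231 Vmn1r and 123 Vmn2r genes, as well as 173 receptor pseudogenes.

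The libraries were chromatin immunoprecipitations (ChIP) with an antibody against gH2AX or against H2AX, and input DNA, from primary C57BL6 MEFs. SIRT7-KO cells were set against WT cells in females and in males, with 2 libraries for gH2AX, H2AX and input in each sex and genotype. All cells of all groups, WT included, had received 5 Gy of X-rays and 30 min of recovery. Columns of the count table for non-treated libraries match no labelled sample and were not used, so no unirradiated level is given here. Separate cultures or animals are not stated for the 2 libraries of a group, and p-values therefore measure the spread between these samples alone. SIRT7 genotype and the culture used cannot be told apart within a sex.

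Vomeronasal receptors are G protein-coupled receptors of the sensory neurons of the vomeronasal organ, which detects pheromones and other chemical signals of animals. Type 1 receptors are encoded by short genes with a single coding exon and work through the G protein subunit encoded by Gnai2. Type 2 receptors have a long extracellular domain spread over several coding exons and are expressed in neurons that use Gnao1. Both families lie in tandem arrays with many pseudogenes, and fibroblasts are not a tissue in which they are known to act. H2AX is a histone H2A variant that is phosphorylated to gH2AX around DNA double-strand breaks, and SIRT7 is a NAD-dependent deacetylase of the nucleus and nucleolus.

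Libraries held 84.5 to 212.2 M reads (M, 1e6) for gH2AX, 66.9 to 250.2 M for H2AX and 92.4 to 269.3 M for input. X to autosomal reads stood at a log2 ratio of -3.99 to -4.03 in libraries labelled female and -4.85 to -4.93 in those labelled male, so the labels of sex held. The bin that holds Sirt7 did not pass the test in input (log2 KO over WT 0.0059, adjusted p = 0.987 in females, and -0.0016, adjusted p = 0.995 in males), and a 100 kb bin cannot show the loss of an exon. The bin before it was higher in KO input by 0.79 in females and 0.86 in males. Counts of genomic DNA show no expression, so the identity of the cells as fibroblasts could not be checked. Libraries of the same group differed by more than sampling noise, the chi-square divided by its degrees of freedom lying between 2.58 and 3.9.

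The receptor bins lay on 11 chromosomes, with 113 on chromosome 7, 35 on chromosome 17, 31 on chromosome 6 and 12 on chromosome 13. Joined over gaps of up to 1 Mb they made 28 clusters, of which 15 had 4 or more bins and held 203 bins. The median gene body was 924 bases for Vmn1r and 24544 bases for Vmn2r genes. A single receptor gene lay in 115 bins, and the most in any bin was 5. Another protein-coding gene overlapped 59 of the bins. In 3 bins, the first of chromosome 4 (Vmn2r122) and the first and second of chromosome 7 (Vmn1r187 and Vmn1r186), no library had a read. This left 217 bins with values, 104 of type 1, 110 of type 2 and 3 of both types.

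The 300 bases around the annotated gene starts (250 before to 50 after, RefSeq, GRCm38.p6) were found for 206 of the 231 Vmn1r and 116 of the 123 Vmn2r genes. The 4 printed here come from the densest bin of each family and from a pair of genes with copied bases, and they are examples rather than typical windows. Capitals mark CG, TATAAA or its reverse complement TTTATA, and an ATG at base 251, the first base of the annotated start. Vmn1r216 (chr13:23098899-23099198, + strand) is a gene that overlaps the bin with the most type 1 genes, while its printed window lies in the bin before it, and Vmn2r53 (chr7:12606495-12606794, - strand) lies in the bin with the most type 2 genes. Vmn1r111 (chr7:20703167-20703466, - strand) and Vmn1r118 (chr7:20912298-20912597, - strand) are separate genes whose windows have the same bases.
Vmn1r216: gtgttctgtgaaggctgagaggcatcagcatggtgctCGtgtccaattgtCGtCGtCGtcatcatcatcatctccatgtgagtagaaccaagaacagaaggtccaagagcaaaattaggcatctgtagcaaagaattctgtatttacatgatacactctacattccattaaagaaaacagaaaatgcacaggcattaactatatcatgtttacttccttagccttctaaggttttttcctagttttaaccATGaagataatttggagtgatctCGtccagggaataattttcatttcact
Vmn2r53: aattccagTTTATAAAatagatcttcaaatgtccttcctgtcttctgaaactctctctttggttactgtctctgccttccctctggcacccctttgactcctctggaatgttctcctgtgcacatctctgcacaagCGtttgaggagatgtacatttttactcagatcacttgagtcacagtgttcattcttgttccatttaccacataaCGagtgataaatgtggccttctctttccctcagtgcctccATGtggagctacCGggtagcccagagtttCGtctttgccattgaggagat
Vmn1r111: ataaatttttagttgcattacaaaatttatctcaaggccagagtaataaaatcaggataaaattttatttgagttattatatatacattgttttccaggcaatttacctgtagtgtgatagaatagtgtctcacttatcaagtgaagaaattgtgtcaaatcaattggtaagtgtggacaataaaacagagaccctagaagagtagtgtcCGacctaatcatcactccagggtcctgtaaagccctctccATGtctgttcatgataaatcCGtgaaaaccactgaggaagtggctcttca
Vmn1r118: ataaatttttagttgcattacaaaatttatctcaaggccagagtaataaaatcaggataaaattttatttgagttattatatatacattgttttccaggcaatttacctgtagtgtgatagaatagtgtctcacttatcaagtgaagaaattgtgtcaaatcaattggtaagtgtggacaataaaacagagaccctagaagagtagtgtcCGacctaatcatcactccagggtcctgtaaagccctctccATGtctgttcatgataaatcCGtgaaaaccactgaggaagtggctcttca

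These windows were poor in G and C. The median GC content was 36.0% for Vmn1r and 38.0% for Vmn2r windows, against 56.7% over the 16456 autosomal protein-coding windows, and 35.0% in 938 olfactory receptor windows. The median number of CG dinucleotides was 1 in both receptor families and 14 over all windows. An ATG stood at base 251 in 87.9% of Vmn1r and 87.1% of Vmn2r windows, against 9.0% of all windows, so that the annotation of most receptor genes begins at an ATG, as a coding sequence does. Transcription starts upstream of it are not annotated there. Most receptor windows thus lie around a coding start and most windows of all genes do not. GC content, CG and TATAAA are therefore compared over unlike positions. TATAAA on either strand was present in 42.2% of Vmn1r and 23.3% of Vmn2r windows, against 13.5% of all windows. Of the printed windows, that of Vmn1r216 has 5 CG dinucleotides, that of Vmn2r53 has 4 and those of Vmn1r111 and Vmn1r118 have 2, and TATAAA is in that of Vmn2r53 alone. A match of these letters is a description and not a binding site.

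Many receptor windows were copies of each other. A window with the same bases as another gene's was found for 55 Vmn1r genes (26.7%) and 8 Vmn2r genes (6.9%), against 1.4% of all windows. They formed 25 groups, the largest of 6 genes (Vmn1r111, Vmn1r118, Vmn1r131, Vmn1r138, Vmn1r257 and Vmn1r166). Of the 62 receptor windows that shared their bases with another receptor window, 60 were on chromosome 7. In 34.5% of Vmn1r and 20.7% of Vmn2r windows most of the 50-base words recurred in other windows, against 7.6% of all windows. The rest of the genome was not searched. How the authors treated reads with several alignments is not given in the sources used here, so counts in copied stretches cannot be assigned to a single gene.

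Input depth was uneven among the receptor bins. It can differ with copy number or with alignment, and neither was tested. Mean input over the 8 libraries had a median of 35.6 CPM (counts per 1e6 autosomal reads), from 4.58 to 79.2, and the central 90% of the bins lay between 13.2 and 48.9 CPM. Over all autosomal bins the median was 37.1 CPM and the central 90% lay between 33.0 and 40.4 CPM. The median receptor bin held 5227 input reads per library, and the shallowest 676. Type 1 bins had a median of 35.2 CPM and type 2 bins of 35.9 CPM.

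A bin was taken to hold a copied window when a receptor gene overlapping it had one, even where the window lay in another bin. Genes whose window was not found counted as having no copy. Low depth was most common in type 1 bins that hold a copied window. The 29 type 1 bins with such a window had a median of 14.5 CPM, and the 75 without had 35.9 CPM. Among type 2 bins the order was the reverse, with 59.5 CPM in the 8 bins with a copied window and 35.6 CPM in the 102 without. The type 1 cluster of chromosome 7 between 20100001 and 24100000 had a median input of 15.1 CPM over its 36 bins. The bin of Vmn1r132 (chr7:21600001-21700000) was the shallowest, although it held no copied window by this rule. Its input was 4.88 and 4.3 CPM in female KO, 4.57 and 4.78 CPM in female WT, 4.17 and 4.68 CPM in male KO and 4.7 and 4.53 CPM in male WT. The bin of Vmn2r32 (chr7:7400001-7500000) was the deepest, with 77.3 and 76.9 CPM in female KO, 79.9 and 79.2 CPM in female WT, 79.5 and 81.0 CPM in male KO and 79.9 CPM in both male WT inputs. Low or high depth was shared by all 4 groups. KO and WT inputs overlapped in both sexes for Vmn1r132 and in males for Vmn2r32, while in females both KO inputs of Vmn2r32 lay below both WT inputs (log2 change -0.04, adjusted p = 0.696).

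**Figure D1:**
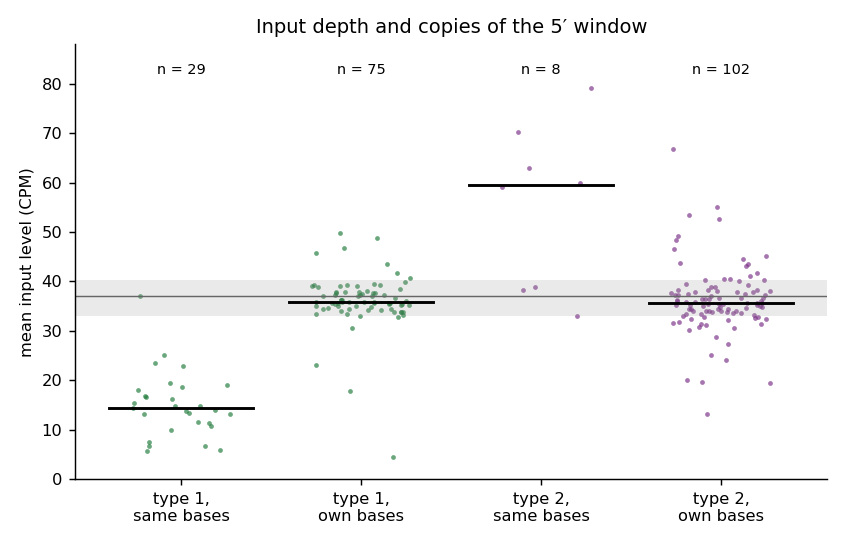
Mean input level (CPM) of each type 1 and type 2 receptor bin, split by whether a receptor gene overlapping the bin has a window with the same bases as another gene's. Black lines are medians and the grey band spans the central 90% of all autosomal bins. Type 1 bins with copied windows sit low (median 14.5 CPM), while type 2 bins with copied windows sit high (median 59.5 CPM).

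gH2AX was below input over most receptor bins. Over all 4 sex and genotype groups, gH2AX relative to input was lower in 179 of the 217 bins and higher in 8, with a median log2 ratio of -0.13 (edgeR quasi-likelihood test, adjusted p under 0.05 over all bins). Calls in either direction were as common as in the genome, with 86.2% of receptor bins and 86.6% of all bins tested. The split was not, since of all bins tested 41.5% were higher and 45.2% lower, and the median over autosomal bins was -0.0076. Olfactory receptor bins had a median of -0.16 (43 higher and 271 lower of 337), bins without a protein-coding gene -0.13 (1199 higher and 6210 lower of 8418) and all other autosomal bins 0.09 (9059 higher and 4080 lower of 15061). The receptor bins thus had the same median as the bins without a gene.

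Total H2AX lay nearer to input. H2AX relative to input was higher in 68 and lower in 102 receptor bins, with a median of -0.02. Of all bins tested, 44.9% were higher and 44.5% lower, 89.4% in all. Bins without a gene had a median H2AX ratio of -0.17, and olfactory receptor bins of -0.06. gH2AX relative to H2AX was lower in 184 receptor bins and higher in 4 (median -0.11), while 36.6% of all bins tested were lower and 38.5% higher, 75.1% in all. For this ratio the bins without a gene had a median of 0.03 and the olfactory receptor bins of -0.09.

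Type 1 and type 2 bins differed in level. gH2AX over input had a median of -0.08 in type 1 bins, with 5 higher and 72 lower of 104, and of -0.18 in type 2 bins, with 3 higher and 104 lower of 110. H2AX over input had a median of 0.05 in type 1 bins (55 higher, 24 lower) and -0.07 in type 2 bins (13 higher, 76 lower). gH2AX over H2AX was close in both, with -0.13 in type 1 bins (3 higher, 92 lower) and -0.10 in type 2 bins (1 higher, 90 lower). The difference in median gH2AX ratio, type 1 minus type 2, was 0.10, and 0.07 without the bins that hold a copied window. These are descriptions of the bins and carry no test between the families.

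**Figure D2:**
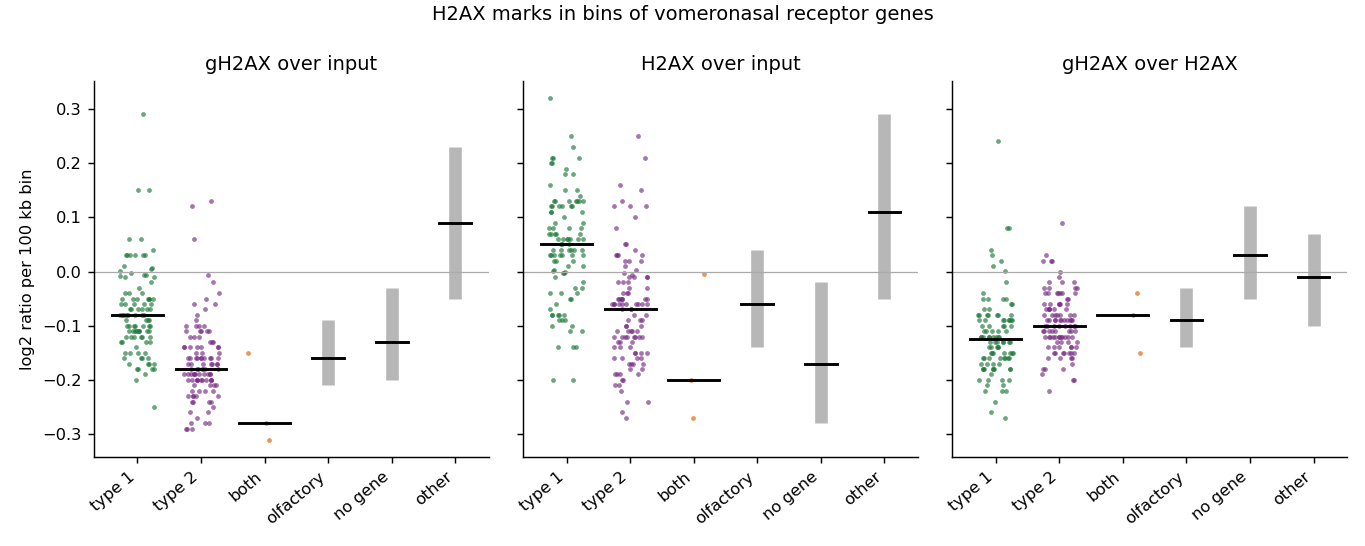
Log2 ratios per 100 kb bin of gH2AX over input, H2AX over input and gH2AX over H2AX, for type 1, type 2 and mixed receptor bins (points, 1 per bin) and for olfactory, gene-free and other autosomal bins (grey bars, interquartile range); black lines are medians. Type 2 bins lie lower than type 1 bins in both ratios to input, and the families come together in gH2AX over H2AX.

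The gH2AX ratio was low in each group of libraries. Its median over the receptor bins was -0.11 in female KO and -0.15 in female WT cells, and -0.18 in male KO and -0.08 in male WT cells. Type 1 bins had -0.07 in female KO and -0.11 in female WT, and -0.11 in male KO and -0.05 in male WT cells. Type 2 bins had -0.14 in female KO and -0.20 in female WT, and -0.23 in male KO and -0.11 in male WT cells. The H2AX ratio moved little, with medians of -0.01 in female KO and female WT, -0.03 in male KO and -0.05 in male WT cells. Across the 217 bins the gH2AX and H2AX ratios to input went together (Pearson r 0.83, Spearman rho 0.85, across bins that share the same input libraries). Over the same 217 bins the number of receptor genes in a bin showed no such relation to the gH2AX ratio (r 0.04, rho 0.1). Within each family the correlation was negative. It was r -0.3 and rho -0.26 in the 104 type 1 bins, and r -0.1 and rho -0.17 in the 110 type 2 bins.

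The clusters differed in their H2AX ratio. The type 1 cluster of chromosome 7 between 20100001 and 24100000 (36 bins, 86 genes) had a median H2AX ratio of 0.10 with 29 bins higher and 0 lower, a gH2AX ratio of -0.06, with 1 bin higher and 17 lower, and a gH2AX to H2AX ratio of -0.15, lower in 34 bins. Type 1 genes of chromosome 6 between 89700001 and 90300000 (6 bins, 15 genes) had an H2AX ratio of 0.07, a gH2AX ratio of -0.11 and a gH2AX to H2AX ratio of -0.19. The small cluster at 5100001 to 6100000 of chromosome 7 (7 bins, 11 type 1 genes and 1 type 2 gene) had 0.07 for H2AX, -0.11 for gH2AX and -0.18 for gH2AX over H2AX. In these arrays the median H2AX ratio was above 0 and the median gH2AX ratio below it.

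Other arrays were low for both. The type 2 cluster of chromosome 7 between 84900001 and 87100000 (16 bins, 15 genes) was lower in all 16 bins for gH2AX (median -0.22) and for H2AX (-0.17). The mixed cluster of chromosome 17 between 17700001 and 21400000 (25 bins, 14 type 1 and 22 type 2 genes) had -0.19 for gH2AX, lower in 24 bins, and -0.11 for H2AX, lower in 20. A further 3 type 2 arrays, on chromosome 3 from 64000001 to 64800000 (8 bins, 7 genes), chromosome 6 from 123300001 to 124300000 (9 bins, 9 genes) and chromosome 17 from 22500001 to 23500000 (7 bins, 8 genes), had -0.16, -0.19 and -0.17 for gH2AX and -0.09, -0.09 and -0.11 for H2AX, with 7, 7 and 6 bins lower for H2AX. Type 1 arrays could be of this kind too. On chromosome 6 the 12 bins between 56900001 and 58500000 (28 type 1 genes) had -0.16 for gH2AX and -0.09 for H2AX, and the 4 bins between 66500001 and 66900000 (8 type 1 genes) had -0.14 for gH2AX and -0.10 for H2AX.

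In several other clusters H2AX lay near input. The largest, on chromosome 7 between 7200001 and 13300000 (39 bins, 24 type 1 and 28 type 2 genes), had medians of -0.11 for gH2AX and -0.01 for H2AX, with 15 bins higher and 15 lower for H2AX. The type 1 cluster of chromosome 13 between 22000001 and 23300000 (12 bins, 36 genes) had -0.08 for gH2AX and 0.03 for H2AX. Among type 2 arrays, chromosome 7 between 41300001 and 43100000 (10 bins, 8 genes) had -0.12 for gH2AX and 0.0099 for H2AX, and chromosome 5 between 108700001 and 109500000 (8 bins, 10 genes) had -0.18 for gH2AX and -0.03 for H2AX. Chromosome 10 between 79100001 and 79500000 (4 bins, 4 genes) had -0.17 for gH2AX and -0.05 for H2AX. The median gH2AX ratio was below 0 in each of the 15 clusters, and the median H2AX ratio was above 0 in 5 of them.

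**Figure D3:**
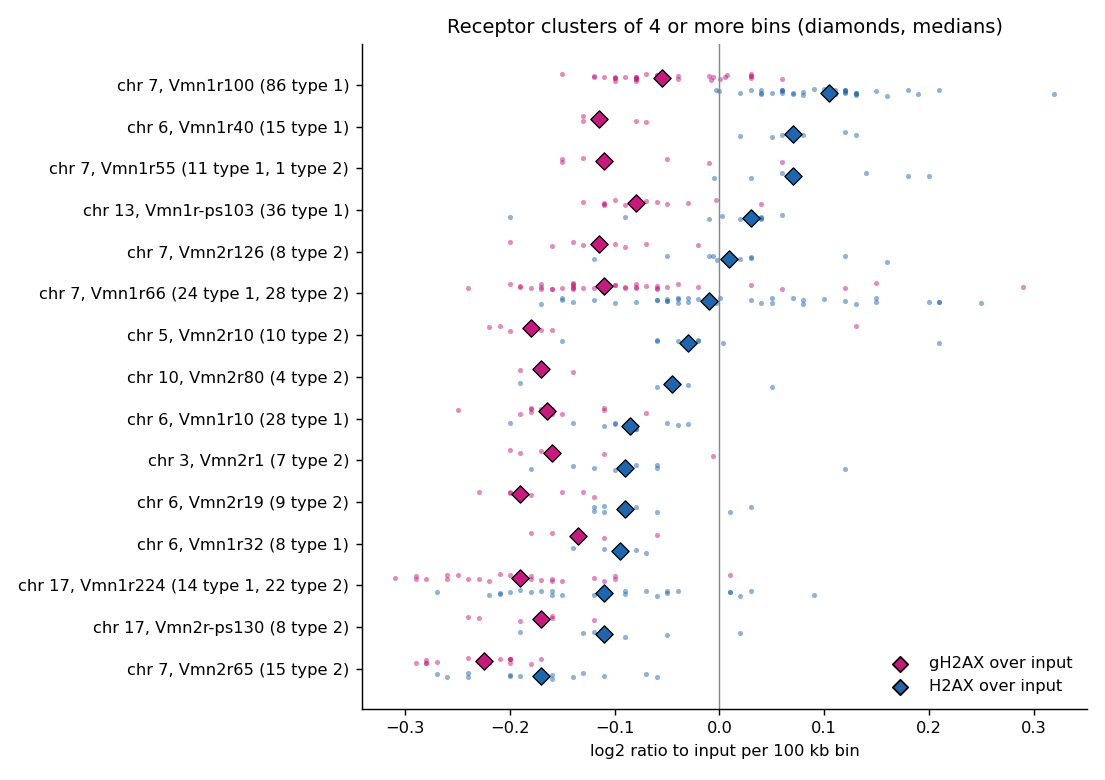
Log2 ratio to input of gH2AX (magenta) and H2AX (blue) in the 15 receptor clusters of 4 or more bins, ordered by their median H2AX ratio and labelled by chromosome and first gene; points are bins and diamonds medians. gH2AX medians lie below 0 in every cluster, from -0.06 to -0.22, while H2AX medians run from -0.17 to 0.10.

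Receptor bins near the cluster edges had a lower gH2AX ratio than the bins outside the clusters. Receptor bins within 10 bins of an edge had a median gH2AX ratio of -0.15 (7 higher and 127 lower of 150). The first 5 bins outside had 0.06 (77 higher, 49 lower of 150), bins 6 to 10 had 0.08 and bins 11 to 20 had 0.05. H2AX over input had -0.04 inside, and 0.10, 0.13 and 0.12 in the 3 zones outside. gH2AX over H2AX had -0.11 inside and 0.0072, -0.02 and -0.05 outside. Bins outside hold no vomeronasal receptor gene, may hold olfactory receptor genes, and are counted once for each cluster that they lie near. Bins within a cluster that hold no such receptor gene were left out. Receptor bins are thus compared with other bins, and where the level changes cannot be placed at the edge.

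**Figure D4:**
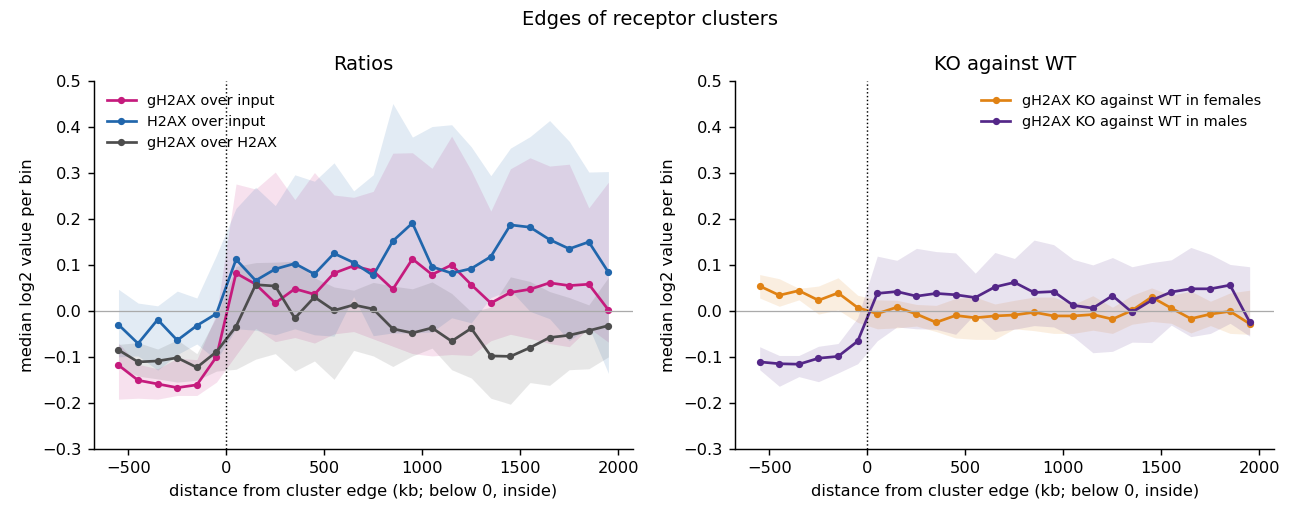
Median log2 value per bin by distance (kb) from the edge of the 15 clusters, with receptor bins inside at negative distances; shading is the interquartile range. Left, the ratios gH2AX over input, H2AX over input and gH2AX over H2AX; right, gH2AX in KO over WT for females and males. gH2AX over input and the male KO change are both below 0 inside and near or above 0 outside.

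Among single bins, the highest gH2AX ratios to input were in bins that share their 100 kb with other genes. The bin of Vmn1r85 (chr7:13000001-13100000), which also holds Trim28, Ube2m, Chmp2a, Mzf1 and Zbtb45, had 45.1 and 42.4 CPM of gH2AX in female KO, 44.5 and 44.1 in female WT, 43.7 and 46.7 in male KO and 41.6 in both male WT libraries. Its input had 36.6 and 35.9 CPM in female KO, 35.6 and 35.8 in female WT, 36.4 and 34.7 in male KO and 38.0 and 35.9 in male WT libraries. Every gH2AX library was thus above every input library, and the log2 ratio was 0.29 ± 0.018 (SE), adjusted p = 2.01e-39. The bins of Vmn1r89 (chr7:13200001-13300000, with the DNA ligase gene Lig1 and Zswim9) and Vmn1r1 (chr1:182100001-182200000, with Srp9, a subunit of the signal recognition particle) both had 0.15.

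The lowest ratios were in the mixed and type 2 arrays. The bin of Vmn1r225, Vmn2r109 and Vmn2r110 (chr17:20500001-20600000), which holds both types and no other gene, had gH2AX levels of 31.0 and 29.6 CPM in female KO, 27.5 and 29.4 in female WT, 26.1 and 27.5 in male KO and 30.6 and 32 in male WT. Its input lay between 35.4 and 38.4 CPM in the 8 libraries, above every gH2AX library. The gH2AX ratio was -0.31 ± 0.02 (adjusted p = 1.44e-37) and the H2AX ratio was -0.27 ± 0.019. The bins of Vmn2r77 (chr7:86700001-86800000, with Folh1) and of Vmn2r91 and Vmn2r124 (chr17:18000001-18100000, with Fpr-rs4) each had a gH2AX ratio of -0.29. The other bins of both types, that of Vmn1r224 and Vmn2r108 (chr17:20400001-20500000) and that of Vmn1r58, Vmn1r59 and Vmn2r28 (chr7:5400001-5500000), had -0.28 and -0.15.

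The H2AX ratio to input was highest in the bin of Vmn1r118 (chr7:20900001-21000000), whose window is printed above. H2AX levels there were 23.8 and 23.7 CPM in female KO, 22.7 and 23.3 in female WT, 22.7 and 24.4 in male KO and 23.0 in both male WT libraries, against input of 17.0 to 19.8 CPM. All H2AX libraries were above all input libraries, and the log2 ratio was 0.32 ± 0.024 (adjusted p = 5.21e-31). The gH2AX ratio to input of this bin was 0.06, and gH2AX over H2AX was -0.26. The bins of Vmn2r56 (chr7:12700001-12800000, with Zscan18) and Vmn1r90 (chr7:14500001-14600000) had H2AX ratios of 0.25 each. The H2AX ratio was lowest in the bins of Vmn1r225, Vmn2r77 and Vmn2r76 (chr7:86200001-86300000), with -0.27, -0.27 and -0.26.

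gH2AX over H2AX was highest in the bin of Vmn1r188 (chr13:22000001-22100000), which also holds the histone genes H2ac11, H2ac12, H2bc11, H2bc12 and H4c9 and the protease gene Prss16. There gH2AX stood at 35.0 and 33.7 CPM in female KO, 35.0 and 34.0 in female WT, 37.4 and 36.4 in male KO and 34.2 and 34.9 in male WT. H2AX was at 28.3 and 29.3 CPM in female KO, 29.3 and 30.1 in female WT, 29.7 and 30.7 in male KO and 30.7 and 30.3 in male WT. Every gH2AX library lay above every H2AX library. The ratio was 0.24 ± 0.019 (adjusted p = 2.51e-26), and it came with an H2AX ratio to input of -0.20 and a gH2AX ratio to input of 0.04 (adjusted p = 0.0707). The next were the bins of Vmn2r90 (chr17:17700001-17800000) with 0.09 and of Vmn1r85 with 0.08. The lowest were Vmn1r238 (chr18:3100001-3200000) with -0.27, Vmn1r118 with -0.26, and Vmn1r251 and Vmn1r252 (chr7:22200001-22300000) with -0.24.

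The bin of Vmn1r216 to Vmn1r220 (chr13:23100001-23200000, 5 type 1 genes) had a gH2AX ratio of -0.11 (adjusted p = 2.15e-09) and an H2AX ratio of 0.03 (adjusted p = 0.163). The bin of Vmn2r53 to Vmn2r56 (chr7:12600001-12700000, 4 type 2 genes) had a gH2AX ratio of -0.04 (adjusted p = 0.0689) and an H2AX ratio of 0.13 (adjusted p = 3.59e-12). Its gH2AX ratio passed with scaling by autosomal totals (adjusted p = 0.029) and when any one of 6 libraries was left out (adjusted p = 0.0109 to 0.0494). The 2 bins were not tested against each other. Neither bin passed the test for gH2AX in male KO against male WT cells, with log2 changes of -0.06 (adjusted p = 0.185) and -0.05 (adjusted p = 0.322).

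The question of whether SIRT7 loss changes the mark was asked within each sex. In males, gH2AX was lower in KO than in WT cells in 122 of the 217 receptor bins and higher in 4, with a median log2 change of -0.11. Of all bins tested 44.7% were called, 22.4% higher and 22.2% lower, against 1.84% higher and 56.2% lower among receptor bins. Type 2 bins had 80 lower and 0 higher of 110 (median -0.12), and type 1 bins 39 lower and 4 higher of 104 (median -0.08). Of the type 1 bins, 36 lay in a chromosome 7 cluster with a median input of 15.1 CPM, and 6 of those 36 were lower. Low depth limits the precision there and so the count of calls. All 3 bins of both types were lower. Of these 3, the bin of Vmn1r58, Vmn1r59 and Vmn2r28 (-0.12) lost its call without gH2AX male KO replicate 2 (adjusted p = 0.0511) or male WT replicate 1 (-0.09, adjusted p = 0.12), and none passed when each library's trend on the gH2AX ratio to input was removed (adjusted p = 0.605 to 0.761). Olfactory receptor bins had a median of -0.12 (13 higher, 210 lower), bins without a gene -0.07 (422 higher, 3369 lower) and other autosomal bins 0.04 (5232 higher, 1648 lower). The mean gH2AX level over receptor bins was 29.96 and 30.1 CPM in male KO and 32.05 and 32.25 CPM in male WT libraries, so the groups did not overlap.

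The spread of the gH2AX ratio along the whole genome moved with this result. The SD of the log2 gH2AX ratio to input over all autosomal bins was 0.247 in male KO and 0.162 in male WT cells, and 0.186 in female KO and 0.23 in female WT cells. When each library's trend on the mean gH2AX ratio of the bins was removed, 5 receptor bins remained called in males, all lower, and the median change was -0.03. By construction this setting takes out any change that runs along that ratio, and whether the difference in spread comes from the ChIP or from the cells was not tested. The count also moved when single libraries were left out, to 77 without gH2AX male KO replicate 2, 83 without male WT replicate 1 and 74 without male WT replicate 2. The lower calls outnumbered the higher ones in the receptor bins in all of these settings. The shares of all bins called with the trend removed or with a library left out are not given here. Counts of called receptor bins in those settings, and their direction, are therefore not set against the genome here.

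The largest male changes were in type 2 bins. The bin of Vmn2r113 (chr17:22900001-23000000) had gH2AX levels of 21.1 and 21.8 CPM in male KO and 25.2 and 27.3 CPM in male WT cells, a log2 change of -0.28 ± 0.046 (adjusted p = 1.57e-07), and input of 27.6 and 28.6 CPM in KO and 27.7 and 27.3 CPM in WT. With the trend removed its change was -0.17 (adjusted p = 0.0232). The bin of Vmn2r72 (chr7:85700001-85800000) had 23.5 and 25.4 CPM in male KO and 29.8 and 29.5 CPM in male WT cells (-0.27 ± 0.044, adjusted p = 1.45e-07). The bin of Vmn2r93 and Vmn2r94 (chr17:18200001-18300000) had 28.5 and 28.8 CPM in male KO and 33.3 and 35.2 CPM in male WT cells (-0.25 ± 0.042, adjusted p = 1.06e-07). In these 3 bins both KO libraries were below both WT libraries, which the rule for naming bins required. Libraries of male KO and WT cells did not overlap in 18063 of 24032 autosomal bins and in 184 of the 217 receptor bins. The bins of Vmn2r72 and of Vmn2r93 and Vmn2r94 did not pass the test with the trend removed (adjusted p = 0.136 and 0.124).

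The 3 highest changes were in type 1 bins that also hold other genes. The bin of Vmn1r85 had a change of 0.13 ± 0.035 (adjusted p = 0.00189), with the levels given above. The bin of Vmn1r1 had gH2AX levels of 41.8 and 43.9 CPM in male KO and 39.9 CPM in both male WT libraries (0.11 ± 0.035, adjusted p = 0.00899). The bin of Vmn1r89 had 42.0 and 41.6 CPM in male KO and 39.1 and 39.0 CPM in male WT cells (0.10 ± 0.036, adjusted p = 0.0198). Without gH2AX male KO replicate 2 the change was 0.07 for both Vmn1r85 and Vmn1r1 (adjusted p = 0.234 and 0.255). Vmn1r1 kept a change of 0.11 without male WT replicate 1 (adjusted p = 0.0533), and Vmn1r89 lost its call whichever male library was left out, at 0.09 to 0.1 (adjusted p = 0.0788 to 0.0858). With the trend removed the changes were 0.02 for Vmn1r85, 0.04 for Vmn1r1 and 0.03 for Vmn1r89, and none of the 3 passed (adjusted p = 0.871, 0.657 and 0.77).

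The male decrease covered the arrays unevenly. In the type 2 cluster of chromosome 7 between 84900001 and 87100000 all 16 bins were lower (median -0.16), and in that of chromosome 17 between 22500001 and 23500000 all 7 were (median -0.13). The mixed cluster of chromosome 17 between 17700001 and 21400000 had 21 of 25 bins lower (median -0.14). The type 1 cluster of chromosome 7 between 20100001 and 24100000 had 6 of 36 lower (median -0.08), where the median input was 15.1 CPM. On chromosome 6, 9 of the 12 type 1 bins between 56900001 and 58500000 were lower (median -0.11). Around the clusters, receptor bins within 10 bins of an edge had a median of -0.11 (3 higher, 88 lower of 150), and the first 5 bins outside had 0.04 (52 higher, 17 lower).

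In females no receptor bin passed the test for gH2AX. The median change in KO against WT cells was 0.04, and 36 of the 217 bins had an unadjusted p under 0.05 in edgeR, 33 of them higher and 3 lower. DESeq2 called 0 bins, with 23 at an unadjusted p under 0.05. Of all bins tested 1.01% were called and 14.8% had an unadjusted p under 0.05. Without gH2AX female KO replicate 1, 1 bin was called, and without female WT replicate 2, 2 were. The mean gH2AX level over receptor bins was 31.29 and 31.57 CPM in female KO and 30.59 and 30.76 CPM in female WT libraries.

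The KO effects of the sexes differed by the test of the difference. Female minus male, the effect on gH2AX was positive in 114 receptor bins and negative in 3, with a median of 0.14, where 20.1% of all bins tested were positive and 20.4% negative, 40.5% in all. Type 2 bins had 78 positive and 0 negative, and type 1 bins had 33 positive and 3 negative. In the type 1 cluster of chromosome 7 with low input depth, 8 of 36 bins were positive. The largest was in the bin of Vmn2r72, with 27.9 and 29.3 CPM in female KO and 25.5 and 27.3 CPM in female WT cells beside the male levels above, a difference of 0.38 ± 0.064 (adjusted p = 2.6e-07). With the trend removed 1 receptor bin was called, and the share of all bins in that setting is not given here. The 4 groups' spread of the gH2AX ratio, given above, moves the same way, being wider in KO than in WT in males and narrower in KO than in WT in females.

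**Figure D5:**
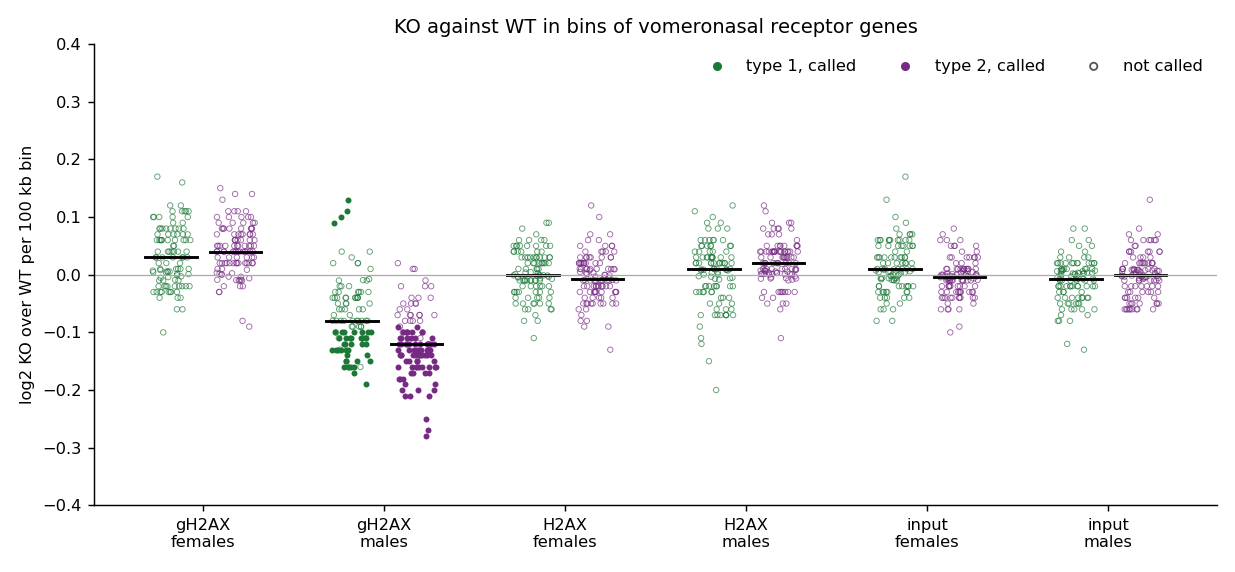
Log2 change in KO over WT per receptor bin for gH2AX, H2AX and input in females and males; type 1 bins stand left and type 2 bins right in each pair, filled points passed the test and black lines are medians. Filled points appear for gH2AX in males, mostly below 0, with a lower median in type 2 (-0.12) than in type 1 bins (-0.08).

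Neither H2AX nor input changed in the receptor bins by this test. For H2AX, 0 bins were called in females and 0 in males, where 0.152% and 0.191% of all bins tested were called. In females 8 receptor bins had an unadjusted p under 0.05 in edgeR and 5 in DESeq2, and in males 17 and 12. Of all bins tested, 5.3% in females and 7.71% in males had an unadjusted p under 0.05 in edgeR. DESeq2 called 0 in both. Without H2AX male KO replicate 1, 2 bins were called in males. For input, 0 bins were called in females and 0 in males, where 0.183% and 0.222% of all bins were called, and DESeq2 called 0 in both. In females 9 receptor bins had an unadjusted p under 0.05 in edgeR and 7 in DESeq2, and in males 7 and 3. The edgeR share of all bins tested at that unadjusted p was 7.4% in females and 7.7% in males. Changes in the receptor bins ranged from -0.20 to 0.12 for H2AX and from -0.13 to 0.17 for input. A difference in input between KO and WT cells was not detectable in these arrays at this depth.

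Set against input, gH2AX in males was lower in KO than in WT cells in 61 receptor bins and higher in 1, with a median of -0.11, where 10.8% of all bins tested were higher and 8.79% lower, 19.6% in all. Type 2 bins had 43 lower and 0 higher, type 1 bins 16 lower and 1 higher. The type 1 count again includes the 36 bins of the chromosome 7 cluster with low input depth. Single libraries moved this count of 62 to 32, 39 and 33 without gH2AX male KO replicate 1, KO replicate 2 or WT replicate 2, and to 26, 32 and 39 without input male KO replicate 2, WT replicate 1 or WT replicate 2. The lowest were the bins of Vmn2r113 (-0.31, adjusted p = 0.000165), of Vmn2r20 and Vmn2r21 (chr6:123400001-123500000, -0.27, adjusted p = 0.00422) and of Vmn2r70 (chr7:85500001-85600000, -0.26, adjusted p = 0.000834). In the bin of Vmn2r70, gH2AX was 26.9 and 26.6 CPM in male KO and 29.5 and 28.8 CPM in male WT (-0.12, adjusted p = 0.0145), and input was 33.0 and 33.8 CPM in male KO and 29.9 and 31.1 CPM in male WT (0.13, adjusted p = 0.122). The gH2AX change passed its test and the input change did not. The single higher bin was that of Vmn1r85 (0.18 ± 0.049, adjusted p = 0.00515). It lost its call without gH2AX male KO replicate 2, input male KO replicate 2 or input male WT replicate 1 (adjusted p = 0.101, 0.0866 and 0.0634).

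Set against H2AX, gH2AX in males was lower in KO than in WT cells in 94 receptor bins and higher in 2 (median -0.12), where 15.9% of all bins were higher and 14.3% lower, 30.1% in all. Type 2 bins had 65 lower and 0 higher, type 1 bins 26 lower and 2 higher. In the type 1 cluster of chromosome 7 with low input depth, 4 of 36 bins were lower. Without H2AX male KO replicate 2 the count of 96 was 57. The lowest were the bins of Vmn2r113 (-0.30, adjusted p = 0.000194), Vmn2r73 (chr7:85800001-85900000, -0.27, adjusted p = 0.000203) and Vmn1r225, Vmn2r109 and Vmn2r110 (-0.27, adjusted p = 0.00018). The 3 male comparisons share the gH2AX libraries and are not independent.

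In females the same ratios gave a single call. Against input, the bin of Vmn2r76 was higher in KO cells (0.22 ± 0.058, adjusted p = 0.0496), where 0.389% of all bins were called. Its gH2AX level was 29.8 and 29.5 CPM in female KO and 25.5 and 28.7 CPM in female WT cells, and its input was 32.7 and 31.9 CPM in KO and 34.7 and 34.3 CPM in WT. DESeq2 called 0 bins, and the call of Vmn2r76 was lost without any one of 7 of the 8 female gH2AX and input libraries, gH2AX WT replicate 2 being the exception. Against H2AX, 0 bins were called in edgeR and 0 in DESeq2, where edgeR called 0.237% of all bins. In edgeR 25 receptor bins had an unadjusted p under 0.05, 23 higher and 2 lower, and in DESeq2 19 did. The edgeR share of all bins tested at that unadjusted p was 13.2%.

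Other genes of vomeronasal signalling were described from a list of ligands, co-receptors, formyl peptide receptors and transduction genes, by the bin that holds most of each gene. Of all bins tested, 41.5% were higher and 45.2% lower for gH2AX over input, and 44.9% higher and 44.5% lower for H2AX over input. For gH2AX in male KO against WT cells 22.4% were higher and 22.2% lower. The Mup genes, for major urinary proteins that carry and act as pheromones, fill 18 bins, of which 16 were lower and 1 higher for gH2AX over input (median -0.07) and 13 higher and 1 lower for H2AX over input (0.07). The Esp genes, for exocrine-gland secreted peptides some of which type 2 receptors sense, fill 11 bins, all lower for gH2AX (median -0.22) and 9 lower for H2AX (-0.13). In male KO cells gH2AX was lower in 8 Mup and 9 Esp bins and higher in 0 of either. With the trend removed, a setting added for these genes after seeing the data, 0 of these 29 bins were called. The share of all bins called with the trend removed is not given here.

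Formyl peptide receptor genes of the vomeronasal organ (4 genes in 3 bins, 1 of them the receptor bin of Vmn2r91) were lower in all 3 bins for gH2AX and for H2AX over input and for gH2AX in male KO cells. The H2-M genes, class Ib histocompatibility molecules of type 2 receptor neurons, lay in 7 bins. These were all higher for H2AX over input (median 0.18), while for gH2AX over input 2 were higher and 3 lower. In male KO cells gH2AX was higher in the bins of H2-M10.2 and H2-M10.6 (0.12 each) and lower in that of H2-M11 (-0.13). With the trend removed 0 bins of either group were called in males.

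Genes of signal transduction were above input. All 8 of their bins were higher for gH2AX over input (median 0.41), among them those of Gng8 (0.60), Gnai2 (0.53), Omp (0.43, the olfactory marker protein), Trpc2 (0.39, the cation channel that the receptors open) and Gnao1 (0.22). All 8 were higher for H2AX over input too (median 0.50). High ratios were not particular to these genes. Autosomal bins with 5 or more protein-coding genes had median gH2AX ratios of 0.269 in male WT to 0.378 in male KO cells. Their median H2AX ratios were 0.343 to 0.355 across the sex and genotype groups. In male KO cells gH2AX was higher in 6 of the 8 and lower in 0 (median 0.13), with Omp at 0.27 (adjusted p = 1.98e-12) and Trpc2 at 0.09 (adjusted p = 0.0221), while Gnao1 had 0.05 (adjusted p = 0.251). With the trend removed only 1 of these bins, that of Omp, was called, and the median was -0.025. In females 0 transduction bins were called for gH2AX.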

How the data were processed

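The deposited values were raw counts of reads per 100 kb bin, with 1 column per library. Of these, 24 columns were used, and 24 further columns, of non-treated libraries that match no labelled sample, were not. Per the submitters' processing notes, the build was mm10, and Bowtie2 2.2.9, SAMtools 0.1.19, MACS2 2.2.7.1, deepTools 2.4.2, Trimmomatic 0.36 and FastQC 0.11.3 were used, in roles the notes here do not give. The handling of duplicates and of reads with several alignments is not given in the sources used here. Per the labels' protocols, chromatin was fixed with formaldehyde and libraries were made with a NEBNext Ultra II kit.

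Counts on chromosomes 1 to 19 and X that passed filterByExpr (25702 bins for gH2AX, 25703 otherwise) were fitted with edgeR 4.0.16 in R 4.3.3, with TMM factors from autosomal bins. KO against WT used the 8 libraries of an antibody or of input with a mean per sex and genotype. Ratios used all 24 libraries with 12 means. The quasi-likelihood F test was two-sided, p-values were Benjamini-Hochberg adjusted over all bins tested, and calls are at an adjusted p below 0.05. Standard errors are the log2 value divided by the square root of F. CPM are counts per 1e6 autosomal reads scaled by TMM within an antibody. The fits were also run on simulated counts, and the outcome is not given here. In these each bin had the same mean in all groups, apart from set changes in some bins. The differing spread of the gH2AX ratio between groups was not simulated. Alternatives were DESeq2 1.42.0, scaling by autosomal totals, no filter, a replicate block, removal of each library's trend on the mean ratio to input, leaving out each library, and subsets of the bins.

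Named were clusters of 4 or more bins, the 3 highest and 3 lowest called bins of each comparison (for KO against WT, with libraries that do not overlap), the bins with the most genes of a type or the lowest or highest input, bins of both types, and the genes of a signalling list. The members and lists were chosen with earlier results of these data known. The annotation and the windows at gene starts were RefSeq's for GRCm38.p6, the assembly of mm10. The group of transcription and wiring genes on that list (9 bins) is not reported here.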

Additional observations from a re-analysis of the deposited data

Results flagged for a closer look

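The effect of KO on gH2AX differed between females and males in 117 receptor bins by edgeR's test of the difference (adjusted p under 0.05 over all bins), 114 of them with a higher value in females. Of all bins tested 40.5% were called. Among the bins named, the difference, females minus males, was 0.38 for Vmn2r72, 0.36 for Vmn2r93 and Vmn2r94, and 0.35 for Vmn2r66. With each library's trend on the gH2AX ratio to input removed they were 0.17, 0.16 and 0.14 and lost the call (adjusted p = 0.183, 0.192 and 0.351). The bin of Vmn2r66 (chr7:85000001-85100000) had gH2AX levels of 27.5 and 27.0 CPM in female KO, 24.7 and 24.8 in female WT, 22.7 and 24.6 in male KO and 27.6 in both male WT libraries, so that KO lay above WT in females and below it in males. The difference had the other sign for Vmn1r85 (-0.14, adjusted p = 0.016), Vmn1r1 (-0.13, adjusted p = 0.0307) and Vmn1r89 (-0.13, adjusted p = 0.0425). The last 3 bins lost the call with DESeq2 (adjusted p = 0.056, 0.0601 and 0.0744). The SD of the log2 gH2AX ratio to input over all autosomal bins was 0.186 in female KO against 0.23 in female WT, and 0.247 in male KO against 0.162 in male WT cells; its part in these results was not tested beyond the removal of the trend.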

How the results depend on the processing

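Removing each library's trend on the mean ratio to input, which by construction takes out changes along that ratio, left 5 called receptor bins for gH2AX in male KO against WT (126 without it) and 1 for the difference between the sexes (117). The share of all bins called in that setting is not given here. Removal of the trend turned the sex difference of the bin of Vmn1r85 to 0.0059 (adjusted p = 0.979), against -0.14 without it. For gH2AX over input in female KO against WT, 1 bin was called, and 0 with DESeq2, 0 with scaling by autosomal totals and 0 among bins without other genes. The difference between type 1 and type 2 bins in median gH2AX over input was 0.10. It was 0.07 without bins that hold a copied window, an alternative chosen after seeing the data, and the cause was not tested. Leaving out each library in turn gave 184 to 189 called bins for gH2AX over input, 163 to 170 for H2AX over input and 183 to 192 for gH2AX over H2AX. For KO against WT it gave 0 to 2 for gH2AX in females, 74 to 90 in males and 81 to 100 for their difference; 0 to 0 for H2AX in females and 0 to 2 in males; 0 to 0 for input in either sex; 0 to 1 for gH2AX over input in females and 26 to 51 in males; 0 to 0 for gH2AX over H2AX in females and 57 to 91 in males; and 0.09 to 0.1 for type 1 against type 2. The value for type 1 against type 2 is the difference in median gH2AX over input across all groups. It is neither a KO against WT value nor a count of bins. A group left with 1 library is assumed to vary like the others. Shares of all bins called are not given here for fits with a library left out or for the replicate block that follows. With the replicate number as a block, 130 bins were called for gH2AX in males, 124 for the difference between the sexes, 66 for gH2AX over input and 102 for gH2AX over H2AX in males. The labels do not pair the numbers, and same-numbered libraries did not all deviate together (correlations of KO and WT deviations from -0.15 to 0.11, and of antibody and input deviations from -0.15 to 0.21). Over the named bins and these alternatives, 80 values kept their direction and lost the call, 12 gained a call and 1 reversed. A further 66 values were marked as moved, and a change of sign could be among these. In the bin of Vmn1r216 to Vmn1r220, gH2AX in male KO against WT cells went from a negative value to 0.0038 with the trend removed. Trends on GC content, alone or with the block, were not run, since no genome of the build was at hand. Low input depth (median 15.1 CPM) limits the precision in the largest type 1 cluster of chromosome 7.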
